A study of Mus musculus with 2 samples.

Results

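First-intron open sites are stretches of accessible chromatin that lie inside the first intron of a protein-coding gene and away from any promoter. They were taken from DNase-seq of mouse hippocampus, an assay in which the enzyme DNase I cuts accessible DNA and the cut ends are sequenced. For each protein-coding gene of GENCODE M21 shorter than 500 kb, the longest basic transcript was used. A peak was a member if it lay wholly in the first intron of that transcript, more than 1000 bp from the start site of any gene and outside every exon. By this rule 7879 of 115072 peaks (6.85%) were first-intron sites in replicate 1 and 6495 of 95711 (6.79%) in replicate 2. Later introns of the same transcripts, held to the same rule, had 17795 and 13865 sites. Of the first-intron sites, 121 in replicate 1 and 103 in replicate 2 also lay in a later intron of another gene and were counted as first-intron sites.

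The tissue came from male B6CASTF1/J mice, the F1 cross between the C57BL/6 and CAST/EiJ strains, aged 14 days. The labels call it a layer of the hippocampus without naming the layer. Both libraries belong to 1 group with no second condition, and they are labelled as 2 biological replicates. The labels mention 3 males and 1 donor identifier for both replicates, without assigning animals to libraries, so the spread between replicates may be partly technical. The tissue is a mixture of cell types, and in such bulk material fewer cells of a type and less open chromatin per cell cannot be told apart.

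The first intron follows the first exon and is on average the longest intron of a gene. It lies next to the promoter, and many known enhancers, which raise transcription of a gene from a distance, sit in it. In the brain, open sites inside neuronal genes are commonly bound by transcription factors that act in a cell type or in response to activity. CTCF, a factor that shapes chromosome loops, and Sp-family factors, which bind GC boxes, are examples of proteins bound at open sites.

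The sequences that follow belong to the 6 strongest first-intron sites that were found in both replicates and whose sequence could be shown, and are shown because they differ in what they carry. They are given on the plus strand of mm10 from the RefSeq copy of that assembly, with bases inside a footprint of either replicate in capitals. A footprint is a short protected stretch within an open site, as deposited at a false discovery rate of 0.01.
Il31ra, chr13:112578161-112578340: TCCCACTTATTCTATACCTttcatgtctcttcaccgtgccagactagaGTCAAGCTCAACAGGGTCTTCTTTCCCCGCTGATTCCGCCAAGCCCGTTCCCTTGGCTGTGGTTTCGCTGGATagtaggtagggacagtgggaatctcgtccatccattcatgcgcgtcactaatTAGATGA
Mxi1, chr19:53314221-53314460: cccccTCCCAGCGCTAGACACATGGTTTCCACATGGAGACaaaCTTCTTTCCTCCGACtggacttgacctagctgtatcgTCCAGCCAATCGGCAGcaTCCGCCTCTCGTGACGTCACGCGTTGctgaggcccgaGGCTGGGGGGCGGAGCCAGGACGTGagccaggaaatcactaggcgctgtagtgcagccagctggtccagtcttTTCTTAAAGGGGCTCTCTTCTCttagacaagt
Nuak1, chr10:84438121-84438320: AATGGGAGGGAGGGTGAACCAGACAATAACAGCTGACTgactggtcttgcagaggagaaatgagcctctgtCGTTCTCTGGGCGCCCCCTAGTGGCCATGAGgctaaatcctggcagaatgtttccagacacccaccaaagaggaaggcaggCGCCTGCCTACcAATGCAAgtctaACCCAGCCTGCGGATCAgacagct
Ptma, chr1:86528241-86528480: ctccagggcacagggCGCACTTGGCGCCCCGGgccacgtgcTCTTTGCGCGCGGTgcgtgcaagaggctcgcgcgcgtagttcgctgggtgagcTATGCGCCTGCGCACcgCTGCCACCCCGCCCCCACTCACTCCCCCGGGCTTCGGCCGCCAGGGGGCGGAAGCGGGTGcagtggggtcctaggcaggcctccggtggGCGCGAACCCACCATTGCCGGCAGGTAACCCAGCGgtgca
Olfm1, chr2:28204221-28204440: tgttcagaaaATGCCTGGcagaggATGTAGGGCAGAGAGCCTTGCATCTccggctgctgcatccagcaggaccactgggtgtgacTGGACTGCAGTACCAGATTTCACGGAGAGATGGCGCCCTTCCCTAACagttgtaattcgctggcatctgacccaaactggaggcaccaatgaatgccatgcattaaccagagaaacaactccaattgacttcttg
Dlg4, chr11:70021411-70021710, the central 300 bases of the site: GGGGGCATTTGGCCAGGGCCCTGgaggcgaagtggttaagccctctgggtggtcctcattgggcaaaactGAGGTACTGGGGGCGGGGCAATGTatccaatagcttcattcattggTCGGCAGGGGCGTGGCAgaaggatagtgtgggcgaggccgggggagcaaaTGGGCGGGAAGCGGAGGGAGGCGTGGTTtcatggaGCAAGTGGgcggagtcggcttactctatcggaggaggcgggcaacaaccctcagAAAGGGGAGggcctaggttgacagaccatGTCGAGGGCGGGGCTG
Footprints of either replicate covered 55.0% of the Il31ra sequence, 57.9% of Mxi1, 52.0% of Nuak1, 58.8% of Ptma, 36.4% of Olfm1 and 41.7% of Dlg4. Motifs were searched on both strands. The Mxi1 site held 1 CRE palindrome (TGACGTCA, the CREB-binding element), 1 GC box (GGGCGG) and 1 E-box (CAGCTG, a site for bHLH factors). The Nuak1 site held 1 CTCF core (CCA, any 2 bases, then AGGGGGC) and 1 CAGCTG. The Dlg4 sequence held 4 GC boxes and the Ptma site 2, while the Olfm1 site held 1 E-box of the form CAGATG. None of the 13 motifs searched was found in the Il31ra site.

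The value per peak is the authors' own signal for that peak, deposited without a stated unit, and is used here to describe and rank sites. The strongest first-intron site lay in Il31ra, the receptor gene for the cytokine interleukin 31. Its value was 19.9 in replicate 1 and 30.8 in replicate 2, and its mean was 2.98 times that of the next site. A search of the assembled chromosomes found 17 other places, on 11 chromosomes, that matched at least 50% of this site at 90% identity or more. The matches ran over 95 to 181 bases at identities of 90.5% to 98.1%. The other 11 of the 12 strongest sites had 0 such copies. Sequence outside the assembled chromosomes was not searched, so any further copies there are not counted. How reads that fit several places were handled is not given in the sources used here. The Il31ra value therefore cannot be assigned to this place alone, and the part of the copies in it was not tested.

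The next sites were much closer together. The site in Mxi1, which codes for a MAX-binding repressor, had values of 7.83 in replicate 1 and 9.19 in replicate 2, and lay 3.82 kb from the start site of the transcript used. The site in Nuak1, an AMPK-related kinase gene, stood at 6.18 and 7.32, in the same order of replicates. Zfp516, a zinc finger gene, had a site of 5.25 and 7.31. These sites were all higher in replicate 2.

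Ptma, the prothymosin alpha gene, followed with 4.89 in replicate 1 and 6.15 in replicate 2. Olfm1, which codes for a secreted neuronal glycoprotein, had 4.72 and 6.16. Dlg4, which codes for the postsynaptic scaffold protein PSD-95, had 5.19 and 5.28, the closest pair of values among the 12. Mnt, a further MAX-partner gene, had 4.67 and 5.54. Nr1d1, which codes for the clock repressor REV-ERB alpha, had 4.52 and 5.63. The remaining sites lay in the cyclin gene Ccnd3 (4.70 and 5.36), in Marcks, which codes for a substrate of protein kinase C (3.97 and 5.98), and in the chitinase gene Chit1 (4.24 and 5.38). All 12 were higher in replicate 2, a library whose peak values ran higher as a whole (median of all peaks 0.734, against 0.594 in replicate 1).

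**Figure D1:**
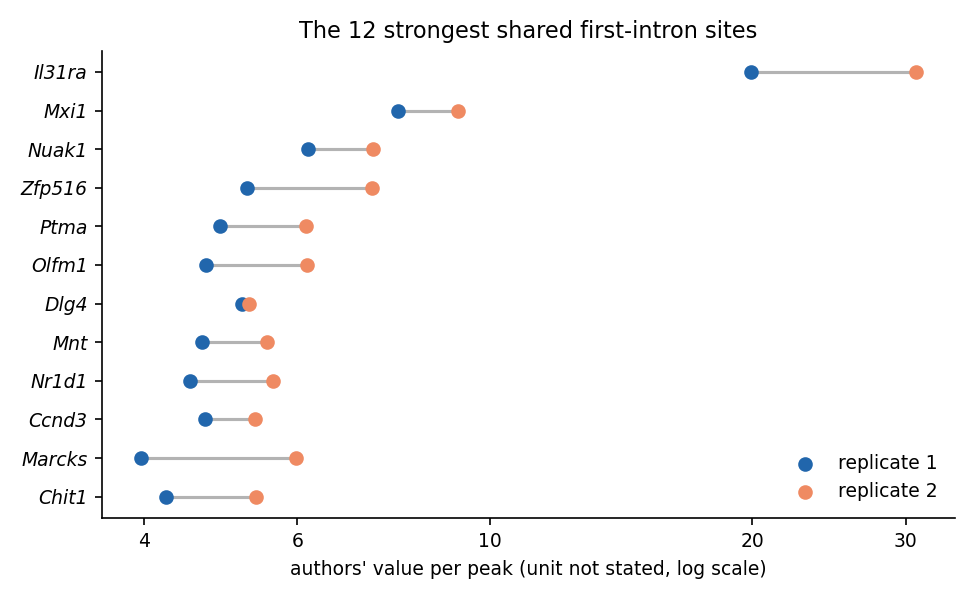
The authors' value per peak (log axis, unit not stated) of the 12 strongest shared first-intron sites, 1 row per gene, with 1 point per replicate joined by a line. The Il31ra site stands apart at 19.9 and 30.8, the other 11 lie between 3.97 and 9.19, and replicate 2 is to the right in all 12.

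The strongest sites lay close to annotated start sites, although none within 1000 bp. Of the 12, 10 were within 2.5 kb of the start site of some transcript, down to 1061 bp for Mnt, and the exceptions were Ccnd3 (5960 bp) and Chit1 (9019 bp). The Olfm1 site was 11.2 kb from the start of the transcript used but 1219 bp from that of another Olfm1 transcript. Among the 100 strongest shared first-intron sites 47 lay within 2.5 kb of a start site, against 15 of the 100 strongest later-intron sites. Over all shared sites the shares were 23.8% for first introns and 10.9% for later introns. A mean value of 4 or more was reached by 22 of 4292 shared first-intron sites (0.513%), Il31ra included, and by 43 of 9842 shared later-intron sites (0.437%). The difference between these shares was not tested.

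First introns held more open sites per length than later introns. Usable intron, meaning intron bases outside exons and outside 1000 bp either side of every start site, came to 177.26 Mb for first introns and 486.83 Mb for later introns. In replicate 1 the density was 44.4 sites per Mb in first introns (95% Poisson interval 43.5 to 45.4), against 36.6 (36.0 to 37.1) in later introns. In replicate 2 it was 36.6 (35.8 to 37.5) in first introns, against 28.5 (28.0 to 29.0) in later introns. The ratio of first over later introns was 1.22 in replicate 1 and 1.29 in replicate 2, a mean of 1.25 ± 0.050 (SD, n = 2). The difference had the same direction in both replicates and was larger than their spread. With 2 replicates an exact two-sided permutation of the labels within replicates cannot go below p = 0.5, which is the value it gave, and the intervals cover counting error only. The ratio was above 1 on all 20 chromosomes with usable introns in both classes other than Y, in both replicates. It ran from 1.02 to 1.74 in replicate 1 and from 1.03 to 1.80 in replicate 2. Chromosome X was the highest in both, with 24.8 sites per Mb in first introns against 14.2 in later introns in replicate 1, and 18.6 against 10.3 in replicate 2, from 208 and 156 first-intron sites.

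The difference was greatest next to the promoter. At 1 to 2 kb from the gene's own start site, first introns had 88.6 sites per Mb in replicate 1, against 43.0 in later introns. In replicate 2 the values there were 77.4 in first introns and 36.7 in later introns. The ratios were 2.06 and 2.11. At 3 to 5 kb they were 1.72 in replicate 1 and 1.52 in replicate 2. From 5 to 50 kb the ratio stayed between 1.17 and 1.29 in both replicates. Beyond 50 kb it was 1.12 in replicate 1 and 1.16 in replicate 2 at 50 to 75 kb, and 1.01 and 1.17 at 100 to 150 kb. At 150 to 200 kb it was 0.82 and 0.83, where first introns had 93 sites in replicate 1 and 68 in replicate 2. At 300 to 500 kb it was 1.43 and 1.67, from 14 and 12 first-intron sites.

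**Figure D2:**
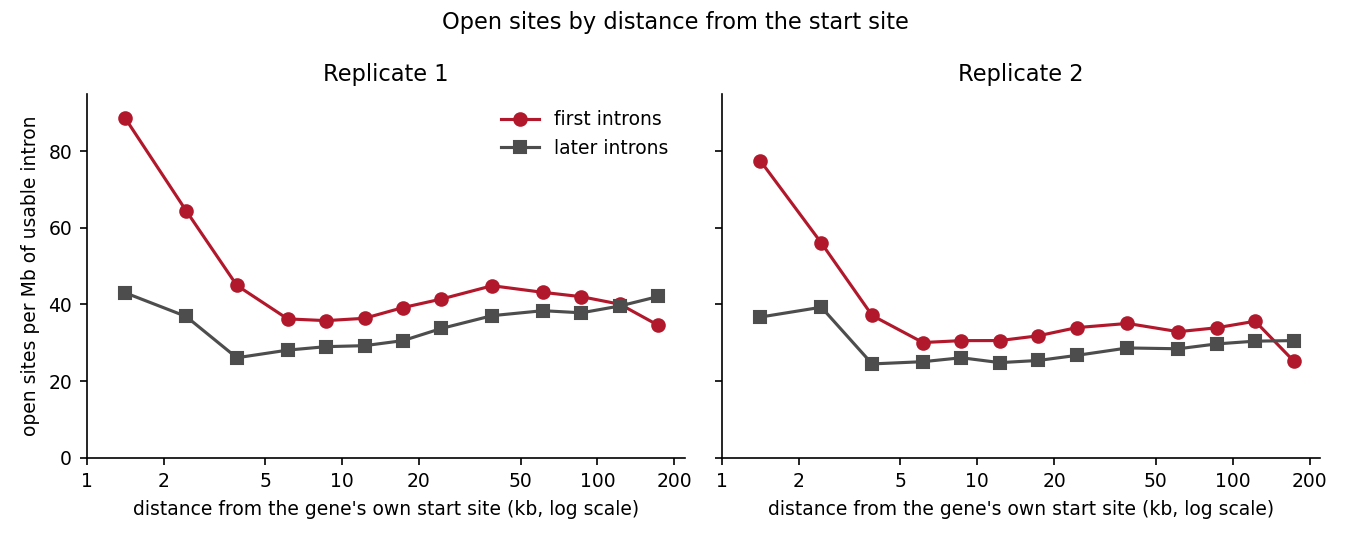
Open sites per Mb of usable intron (vertical axis) against distance from the gene's own start site in kb (log axis, points at the middle of each distance class), for first introns (red circles) and later introns (grey squares), 1 panel per replicate. First introns start at 88.6 and 77.4 sites per Mb at 1 to 2 kb, come down to 36.2 and 30.1 at 5 to 7.5 kb, and stay above later introns up to 150 kb.

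First introns begin nearer the start site than later introns, so the observed number was also set against the number that later introns of the same distance class would give. On this scale 7896 sites stood against 5988.1 in replicate 1 and 6516 against 4986.5 in replicate 2, ratios of 1.32 and 1.31 (mean 1.31 ± 0.0084, SD, n = 2; exact p = 0.5). Where introns of several genes lay over each other on 1 strand, as in gene clusters with a common last part, each base and each site was given to the intron with the nearest start. Set against later introns of the same length in place of distance, the ratio was 1.12 in replicate 1 and 1.21 in replicate 2. Short introns differed most: among introns of 1 to 5 kb the ratio was 1.57 in replicate 1 and 1.69 in replicate 2, and among those of 100 to 500 kb it was 1.03 and 1.09. With the exclusion around start sites widened to 5 kb, the plain ratio was 1.10 and the ratio at equal distance 1.22, as means of the replicates.

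Density came down with intron number. In replicate 1 it was 44.4 sites per Mb in first introns, 39.0 in introns numbered 2, 38.6 in introns numbered 3, 36.5 in those numbered 4 and 34.8 from number 7 on. Replicate 2 had 36.7 in first introns, then 31.0, 30.5 and 28.9 in introns 2, 3 and 4, and 26.5 from number 7 on. The last intron of a gene stood at 38.3 in replicate 1 and 30.4 in replicate 2, close to introns numbered 2 and above those from number 7 on. By distance from the start site there was no such steady fall. Later introns had 43.0 sites per Mb at 1 to 2 kb, 26.1 at 3 to 5 kb and 42.1 at 150 to 200 kb in replicate 1. In replicate 2 they had 36.7, 24.5 and 30.6 at these distances. Within introns of 20 kb or more, cut into 5 equal parts from the 5′ end, first introns (n = 2742) had 56.2, 37.1, 39.0, 43.5 and 45.7 sites per Mb in replicate 1. In replicate 2 the same 5 parts had 48.2, 30.6, 31.5, 33.3 and 38.0. Sites were thus densest in the part next to the promoter, sparsest in the second part, and denser again towards the second exon. Later introns of the same lengths (n = 4457) were level, between 39.4 and 40.9 in replicate 1 and between 30.1 and 31.1 in replicate 2. No test was run on these profiles.

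**Figure D3:**
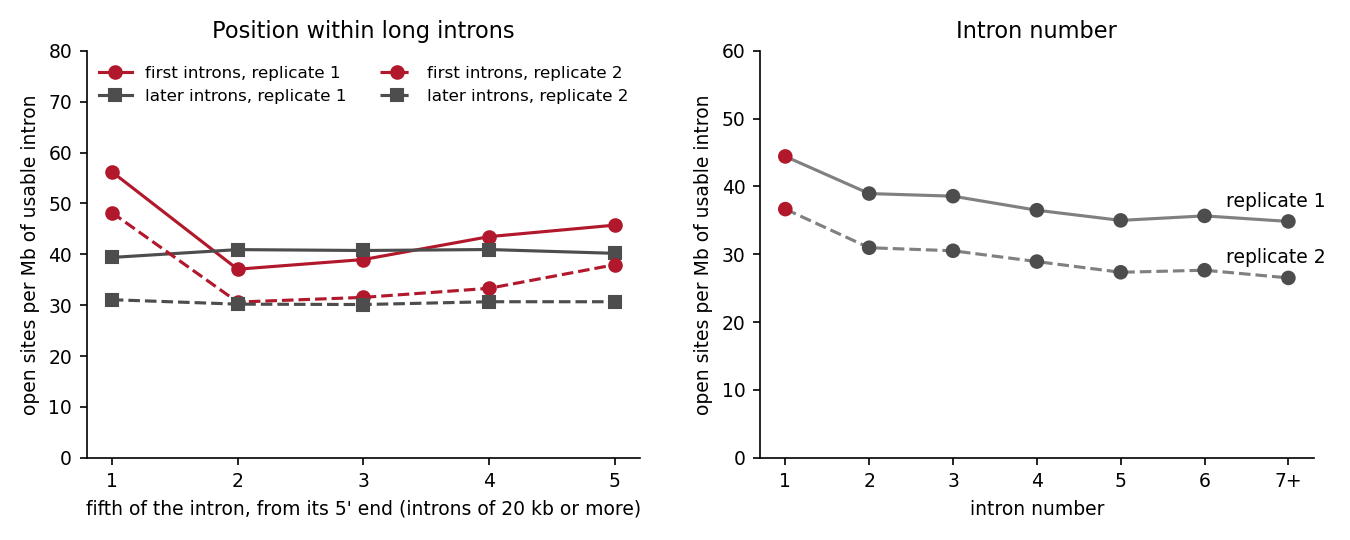
Open sites per Mb of usable intron, on the left by part of the intron from its 5′ end (introns of 20 kb or more; first introns red circles, later introns grey squares) and on the right by intron number (first intron red). Solid lines are replicate 1 and dashed lines replicate 2. The first-intron curves are high at both ends, with 56.2 and 48.2 in the first part, while the later-intron curves are level.

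First introns were denser behind an open promoter than behind one without a peak. A promoter was called open here if a peak overlapped the 1000 bp either side of the start site of the transcript used. First introns behind an open promoter had 47.6 sites per Mb in replicate 1 (8861 genes), against 38.5 in later introns of those genes. In replicate 2 they had 39.4 (8830 genes), against 29.8 in later introns. Behind a promoter without a peak, first introns had 30.7 sites per Mb in replicate 1 (4370 genes), against 31.7 in later introns. In replicate 2 they had 843 sites in 33.8 Mb (4401 genes), against 1839 sites in 74.4 Mb of later introns (24.7 per Mb). In genes with 0.2 to 2 kb of usable first intron and an open promoter, density was 73.0 in first introns and 33.8 in later introns in replicate 1, and 75.8 and 28.5 in replicate 2. The difference between the promoter states was not tested.

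**Figure D4:**
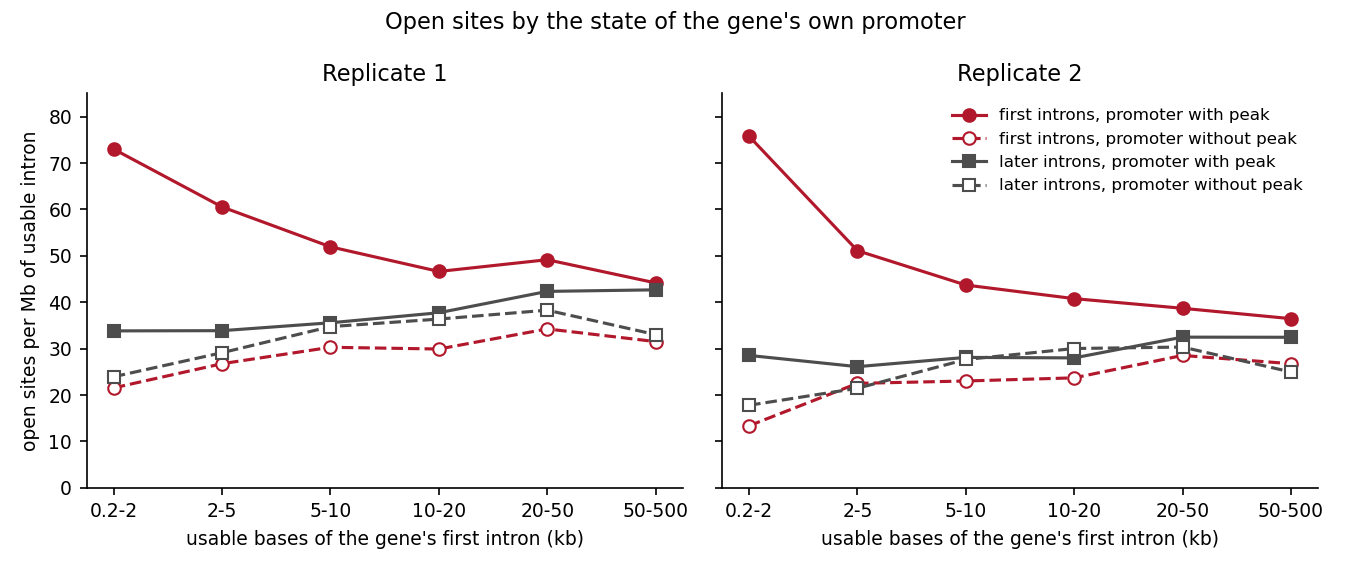
Open sites per Mb of usable intron against the usable bases of the gene's first intron (kb), 1 panel per replicate; red circles are first introns, grey squares later introns of the same genes, filled symbols genes with a peak at their own start site and open symbols genes without. Filled red circles lie above all others in each class, from 73.0 (replicate 1) and 75.8 (replicate 2) at the left.

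Density was also set side by side within single genes. Of 4990 genes with at least 5 kb of usable bases in both kinds of intron, 3666 had a site in replicate 1, and the first intron was the denser in 1634 of them (44.6%). In replicate 2 it was the denser in 1505 of 3341 genes (45.0%). Together these first introns held 33.6% of the usable bases, 36.0% of the sites of replicate 1 and 37.4% of those of replicate 2. The share of genes that equal densities would give was not worked out, so no direction is read from these counts of genes.

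Sites in first introns had the same median value as those in later introns. The median value was 0.559 in first introns and 0.559 in later introns in replicate 1, and 0.669 and 0.669 in replicate 2. The middle 50% of values ran from 0.403 to 0.834 in first introns and from 0.396 to 0.849 in later introns in replicate 1. In replicate 2 it ran from 0.473 to 0.995 in first introns and from 0.473 to 1.00 in later introns. Median width was 197 bp in first introns and 190 bp in later introns in replicate 1, and 190 bp and 182 bp in replicate 2. Distance made little difference: at 1 to 2 kb the median of first-intron sites was 0.516 (replicate 1) and 0.652 (replicate 2), and at 50 to 100 kb it was 0.580 and 0.709. A footprint lay wholly within 72.8% of first-intron sites and 75.2% of later-intron sites in replicate 1, and 71.5% and 73.6% in replicate 2.

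Between the replicates, 58.2% of the first-intron sites of replicate 1 overlapped a peak of replicate 2 by at least 1 bp, against 58.1% of later-intron sites. Of the first-intron sites of replicate 2, 71.2% overlapped a peak of replicate 1, against 75.4% of later-intron sites. The difference was 0.10 percentage points in replicate 1 and -4.24 in replicate 2, so its mean of -2.07 ± 3.07 (SD, n = 2; exact p = 1.0) was smaller than the spread. Merged over the replicates there were 9571 first-intron sites, of which 4292 were found in both. Across these 4292 shared sites the values of the replicates had a Spearman's rho of 0.896, and 0.892 across the 9842 shared later-intron sites, as a description over sites that share libraries.

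At the edges of the rule, 1861 peaks of replicate 1 and 1522 of replicate 2 lay in these first introns at 500 to 1000 bp from a start site, just outside it, with median values of 0.552 and 0.709. Just inside, over 1000 and up to 1500 bp away, there were 943 and 805 sites with medians of 0.537 and 0.677. Genes of 400 to 500 kb, inside the length limit, had 433 and 365 sites in their first introns (41.1 and 34.6 per Mb), and genes of 500 to 600 kb, outside it, 254 and 176 (29.8 and 20.6 per Mb).

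Over all distances together, first-intron sites were slightly richer in G and C than later-intron sites. Mean GC content was 51.9% in first-intron sites and 50.9% in later-intron sites in replicate 1, and 53.5% and 52.4% in replicate 2. The difference was 1.02 percentage points in replicate 1 and 1.06 in replicate 2 (mean 1.04 ± 0.030, SD, n = 2; exact p = 0.5), larger than the spread between replicates. The gap varied with distance from the gene's own start site. At 5 to 10 kb first-intron sites had 52.5% and later-intron sites 51.4% in replicate 1, and 53.8% and 52.9% in replicate 2. At 100 to 500 kb first-intron sites were lower in both replicates (49.8% and 50.4%, 51.6% and 52.0%). At 1 to 2 kb they were lower in replicate 2 alone. In all other classes they were higher in both. The part of distance in the gap was not tested. The usable bases of the introns themselves differed by less, at 43.1% GC in first introns and 42.7% in later introns. CpG dinucleotides numbered 1.87 per 100 bp in first-intron sites and 1.63 in later-intron sites in replicate 1, and 2.09 and 1.80 in replicate 2.

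Motif content followed the same lines in both replicates, in the central 150 bp of each site. The GC box GGGCGG was in 6.10% of first-intron sites (exact 95% interval 5.59 to 6.66) and 4.42% of later-intron sites (4.13 to 4.74) in replicate 1. In replicate 2 it was in 7.19% (6.57 to 7.85) and 5.19% (4.83 to 5.58). Peaks at promoters held it in 30.2% and 32.3% of cases, far above either kind of intron. The CRE palindrome TGACGTCA was rare, in 26 first-intron sites (0.330%) and 19 later-intron sites (0.107%) in replicate 1, and 27 (0.416%) and 21 (0.151%) in replicate 2. Of all peaks, 14583 (12.7%) held the GC box and 0.502% the CRE in replicate 1, and 14360 and 0.582% in replicate 2.

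The CTCF core ran the other way. It was in 1.17% of first-intron sites (0.942 to 1.43) and 2.19% of later-intron sites (1.98 to 2.41) in replicate 1, and in 1.25% (0.992 to 1.55) and 2.49% (2.24 to 2.76) in replicate 2, against 1.56% and 1.66% of all peaks. The intervals of first and later introns did not overlap in either replicate. Such intervals cover counting error over sites only, and many sites are the same in both replicates. No test across replicates was run on motifs. The gap was there close to start sites and far from them. Within 5 kb of the nearest start site, 1.17% of first-intron and 2.80% of later-intron sites had the core in replicate 1, and 1.36% and 2.95% in replicate 2. Beyond 5 kb it was 1.17% and 1.97% in replicate 1, and 1.16% and 2.32% in replicate 2. The AP-1 motif TGANTCA, bound by Fos and Jun, was in 5.89% of first-intron and 5.89% of later-intron sites in replicate 1, and in 5.19% and 5.30% in replicate 2. The neuronal E-box CAGATG was in 20.7% and 21.4% in replicate 1 and in 19.4% and 20.7% in replicate 2. CAGCTG was in 16.8% and 16.9% in replicate 1, and 17.5% and 17.0% in replicate 2. A match describes the letters of a site and does not show that a factor was bound.

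Sites were spread thinly over genes. Of 13339 genes whose first intron had at least 200 usable bases, 2413 (18.1%) had at least 1 first-intron site found in both replicates. Of 16799 genes with that much later intron, 4374 (26.0%) had such a later-intron site. Among the 2413 genes 1485 had 1 shared first-intron site and 478 had 2, and the 120 genes with 5 or more held 18.3% of the sites.

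The genes with the most shared first-intron sites differed widely in intron length. Sorcs2, a sorting receptor gene, had 15 in an intron with 161.78 kb of usable bases, and E130114P18Rik had 15 in 112.19 kb. Nfic and Nfix, both genes of the nuclear factor I family of DNA-binding proteins, were far denser: Nfic had 14 in 29.8 kb, and Nfix 12 in 23.7 kb. Bcor, the corepressor of BCL6, had 13 in 92.2 kb, and Maml3, a coactivator of Notch, 12 in 211.82 kb. Ncam1, the neural cell adhesion molecule gene, had 12 in 226.24 kb. The list was completed by Arhgap26 (13), whose intron also contains Fgf1, Upp2 (12) and Ubash3b (10).

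The Nfix sites differed among themselves. In replicate 1 the 12 ranged from 0.651 to 2.14 and in replicate 2 from 0.807 to 2.38. The strongest, at 6.00 kb into the intron, had values of 2.14 in replicate 1 and 2.38 in replicate 2. The widest spanned 1760 bp, with 11 footprints in replicate 1 and 21 in replicate 2. Averaged over the replicates, 11 of the 12 lay above 0.771, the median of all shared first-intron sites.

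Some genes had many shared sites in later introns and none in the first. They were led by Arid1b, a gene of the SWI/SNF chromatin remodeller, Cdh4, a cadherin gene, Msra and the synaptic scaffold gene Shank2, each with 18 shared later-intron sites, and Mad1l1 with 16. For Cdh4 and Msra the rule left 0 and 9 usable bases in the first intron, so no site could have been counted there. Shank2 had 25.3 kb and Arid1b 42.1 kb of usable first intron without a shared site, beside 371.19 kb and 292.95 kb of usable later intron. Arid1b had 2 first-intron sites in replicate 1 alone. These genes were picked for having no shared first-intron site, and the part of intron length was not tested.

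Genes of known function were compared in lists, with all genes as the background: 18.1% of genes with a shared first-intron site, 23.9 shared sites per Mb of first intron and a median of 4.60 kb of usable first intron. No list was tested. Of the forebrain transcription factor genes 7 of 12 had a site, and their first introns held 22 in all, or 169 per Mb, against 36.8 per Mb in their later introns. Nfix gave 12 of the 22, and without it the density was 94.1 per Mb. The patterning gene Emx1 had 2 sites within 4.08 kb of usable intron. The stronger had values of 1.56 in replicate 1 and 1.80 in replicate 2, and the weaker 0.658 and 0.921. Cux1, a homeobox gene, had 4 sites.

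Glutamatergic genes, which serve excitatory transmission, had a site in 3 of 10. The 3 Dlg4 sites lay in 3.94 kb of usable intron. Besides the strong one they had values of 1.36 and 0.827 in replicate 1, and 1.31 and 1.15 in replicate 2. Camk2a, the gene of the alpha subunit of the synaptic kinase CaMKII, sits on chromosome 18 and had 3 sites between 4.81 and 8.66 kb into its intron. Their values were 1.15, 1.95 and 1.39 in replicate 1, and 1.33, 1.66 and 1.94 in replicate 2. Camk2b, of the beta subunit, had 1 site of 2.14 in replicate 1 and 2.59 in replicate 2, at 34.6 kb into the intron.

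Ion channel and pan-neuronal genes most often had a site, and they also had long first introns. Of 14 ion channel genes 10 had one, with a median of 54.1 kb of usable first intron and 38.8 sites per Mb, against 24.9 in their later introns. The potassium channel gene Kcnq3 had 9 shared sites and the calcium channel gene Cacna1e 7. Of 11 pan-neuronal genes 9 had a site (36.0 per Mb), among them the synapsin gene Syn2 and the growth cone gene Gap43 with 3 each. Synaptic adhesion genes had one in 6 of 10, at 28.8 sites per Mb against 12.5 in their later introns, and Ncam1 held 12 of the 29 sites.

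Marker genes of hippocampal neuron classes formed further lists. Dentate granule genes had a site in 5 of 10 (28.2 per Mb), among them Bcl11b with values of 2.32 in replicate 1 and 3.19 in replicate 2. CA pyramidal genes had a site in 3 of 10 (24.9 per Mb, or 16.9 without Grik4), and their later introns had 30.4 per Mb. All genes had 23.9 per Mb in first introns and 20.5 in later introns. Of 16 genes on the GABAergic list, 2 could be counted and neither had a site.

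Glial, vascular and immediate early genes are set here beside all genes, of which 18.1% had a site, at 23.9 per Mb. Astrocyte genes had a site in 4 of 9 (47.7 per Mb, or 29.7 without Nfia), among them Nfia with 2. Oligodendrocyte precursor genes had one in 2 of 6 (34.4 per Mb, or 104 without Tnr), Tnr with 5 sites and Cspg4 with 3. Myelin genes had 0 in 9, although their later introns held 10 shared sites. Microglia genes had a site in 3 of 12 (59.1 per Mb, or 30.8 without Csf1r). Csf1r, the receptor for the growth factor on which microglia depend, had 2, of which the stronger stood at 0.941 in replicate 1 and 0.978 in replicate 2. Endothelial and mural genes had one in 4 of 11, led by the pericyte gene Pdgfrb with 3. Immediate early genes are switched on by neuronal activity, and 2 of 9 had a site (23.1 per Mb, or 12.5 without Nr4a2). These were a site of Nr4a2 and a weak one of Bdnf (0.403 in replicate 1 and 0.359 in replicate 2).

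Genes of other tissues and housekeeping genes were counted in the same way. Liver genes had one in 0 of 7, lymphocyte genes in 0 of 11, housekeeping genes in 0 of 8, muscle genes in 1 of 7 (Mybpc1) and erythroid genes in 1 of 6 (Ank1, with 3). Those single genes put the muscle list at 41.8 and the erythroid list at 32.2 sites per Mb. Median usable first-intron lengths were 1.92 kb for the liver, 4.16 kb for the lymphocyte, 3.52 kb for the housekeeping and 0.744 kb for the muscle list. The erythroid list had 1.63 kb, and all genes 4.60 kb. Lists with more sites could be as short: 3.53 kb for forebrain transcription factors (7 of 12 genes with a site), 2.07 kb for glutamatergic genes (3 of 10) and 2.18 kb for microglia genes (3 of 12). The part of intron length in these counts was not tested.

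**Figure D5:**
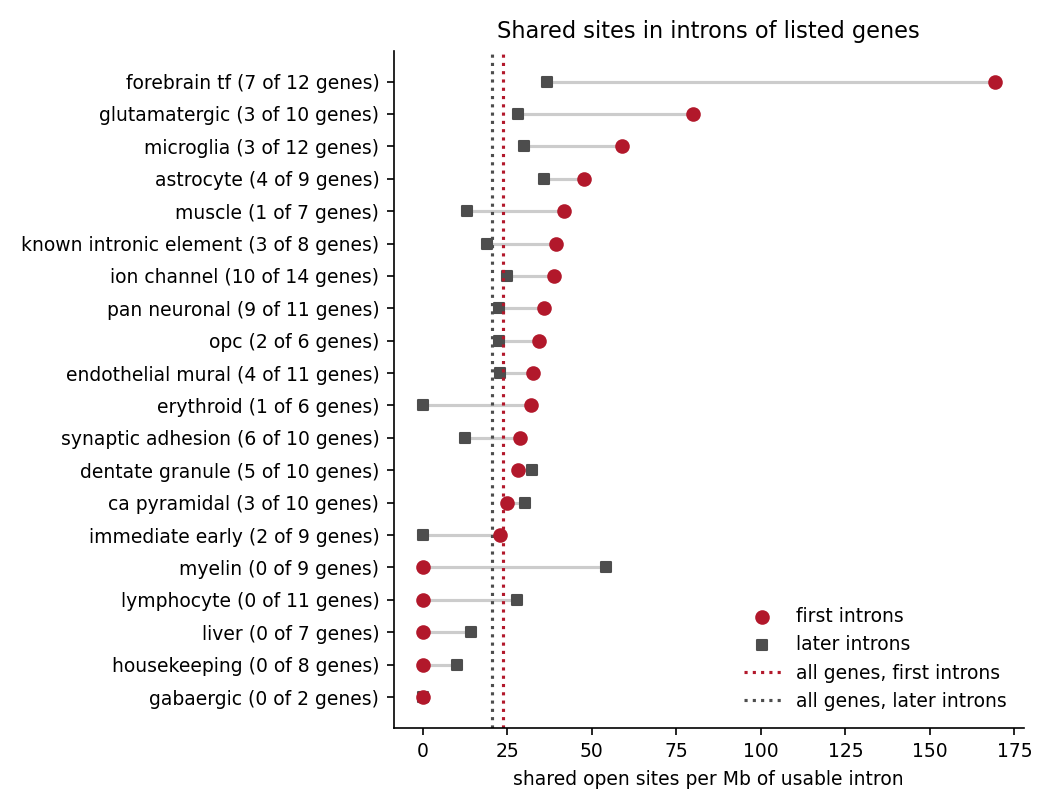
Shared open sites per Mb of usable intron for each gene list, in first introns (red circles) and later introns (grey squares), with the number of genes that had a shared first-intron site of those that could be counted; dotted lines mark all genes. The forebrain transcription factor list is farthest right at 169 per Mb, and the myelin, lymphocyte, liver, housekeeping and GABAergic lists stand at 0 for first introns.

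Of 12 genes known for regulatory elements in introns, in various tissues, 8 had enough usable first intron and 3 had a shared site. Besides Csf1r, whose intronic FIRE enhancer is known in macrophages, they were Fto, with 2 sites, and the limb and forebrain patterning gene Gli3, with 1. The Fto sites stood at 0.778 and 1.60 in replicate 1, and 0.881 and 1.88 in replicate 2, at 16.5 and 65.3 kb into the intron. The Gli3 site was weak, at 0.311 in replicate 1 and 0.310 in replicate 2. Nes, Lmbr1 and Pax6 had no first-intron site, and Cd4 had 1 in replicate 1 alone. The rule left 862 usable first-intron bases in Nes and 261 of 10760 in Pax6, so there was little room for a site. Lmbr1 had 12.5 kb. In later introns Pax6 had 2 shared sites and Lmbr1 1. Runx1, Col2a1, Thy1 and Sox10 had 0 usable first-intron bases under the rule.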

How the data were processed

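DNase-seq peaks and footprints of 2 libraries were used as deposited. Each file was made per library on mm10, per the file headers and labels. Aligner and caller: not given in the sources used here. The authors state no unit or scaling for the signal of each peak, and depth per library is unknown, so strength was described within each library. The p-value column of the footprint files, as deposited by the authors, holds 1 false discovery rate of 0.01 for every footprint. Of the 2 peak lists per replicate the longer was used. The cut-rate files were not used here.

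Peaks were placed on GENCODE M21 introns with Python 3.11.15 scripts (pandas 2.3.3, numpy 2.4.6, scipy 1.17.1), which gave back the ratios of simulated sites placed at known densities. Densities are per usable base. Distance classes ran from 1 to 500 kb. Shares have exact 95% binomial intervals and densities exact Poisson intervals. Copies of sites were searched with megablast (BLAST 2.17.0+). Sites were shared if peaks of the replicates overlapped by at least 1 bp.

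Genes named are those of the 12 strongest shared first-intron sites, the 10 with the most shared first-intron sites, the 5 with the most shared later-intron sites and none in the first, up to 3 per list, and all genes known for intronic elements. Some genes that the rule takes are left out of the text. Sequences are the 6 strongest outside chromosome 18. Where gene models shared a symbol, the one with the most usable first intron was taken. Members and lists were chosen with earlier results of these data known.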

Additional observations from a re-analysis of the deposited data

How the results depend on the processing

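The values rest on 2 libraries of unknown depth and unstated scaling, from hybrid mice aligned to the C57BL/6 genome. Counts near start sites depend on the transcripts annotated. With 1 group of samples, no comparison of conditions was possible. First and later introns were compared as pairs within each replicate.

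All ratios of density, first over later introns, stayed above 1 under every alternative run. From a mean of 1.25, the plain ratio was 1.11 more than 2.5 kb from any start site, 1.10 more than 5 kb from one and 1.35 with start sites of gene models only; the other 7 alternatives, of which 2 were chosen after seeing the data, moved it by less than the spread between replicates. From 1.31, the ratio at equal distance was 1.20 in the shorter peak lists, 1.24 and 1.22 with the limits of 2.5 and 5 kb, 1.35 with gene models, 1.33 with the longest spliced transcript, 1.23 by peak centre, 1.33 in introns free of other coding genes, 1.36 in genes under 200 kb, 1.28 in shared sites alone and 1.17 matched by intron length. The ratio of median values was 0.964, 1.02, 1.03, 1.01, 1.01, 0.988 and 1.00 under the shorter lists, 2.5 kb, 5 kb, gene models, spliced transcript, genes under 200 kb and shared sites, and 1.01 without runs of unshared peaks. In the same settings and in introns free of other coding genes, the GC difference was 1.54, 0.883, 0.841, 1.34, 1.01, 1.08, 1.22 and 1.08 percentage points. The difference in the shared share ran from -4.82 to -1.62 points, and without replicate 2 its sign turned. Without 1 replicate each, the plain ratio was 1.22 to 1.29, the ratio at equal distance 1.31 to 1.32, the median ratio 1.00 in both, the shared difference -4.24 to 0.10 and the GC difference 1.02 to 1.06. The cause of these shifts was not tested.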

Other observations

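Some first introns held runs of weak peaks in 1 replicate alone. Runs were looked for after seeing the data, as 8 or more peaks in a row with no counterpart in the other replicate and no more than 5 kb apart. They held 106 first-intron sites (1.35%) in replicate 1 and 210 (3.23%) in replicate 2, against 145 and 347 of the 17795 and 13865 later-intron sites. Their median value in first introns was 0.219 in replicate 1 and 0.212 in replicate 2, against 0.431 and 0.489 for other unshared first-intron sites. A footprint lay within 43.4% of first-intron sites in runs in replicate 1 and 38.6% in replicate 2, and within 73.2% and 72.6% of those elsewhere.

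The longest run lay in Mettl24, a methyltransferase-like gene, where 50 peaks of replicate 1 with values of 0.0707 to 0.523 stood within 31.7 kb; that intron had 62 sites in replicate 1 and 3 in replicate 2. Cadm1, a synaptic adhesion gene, had 28 sites in replicate 2, of which 22 in 1 run, and 9 in replicate 1. Coro2a, which codes for an actin-binding coronin, had 18 in replicate 2 and 1 in replicate 1, and the kainate receptor gene Grik4 22 and 7. Kcnmb4, a potassium channel subunit gene, had 12 in replicate 2 and 0 in replicate 1. Without such runs the density ratio of first over later introns was 1.21 in replicate 1 and 1.28 in replicate 2. Counts of shared sites per gene contain no site of such runs, while counts per gene in 1 replicate do.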
